A study of Mus musculus with 20 samples.

Results

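The regions described here are the stretches of the genome marked by histone modifications in fetal liver hematopoietic stem cells (HSCs), sorted by which of 4 marks each one carried. They were formed from the 4 deposited fetal peak lists, for H3K4me3, H3K27ac, H3K4me1 and H3K27me3, on chromosomes 1 to 19. Peaks of any mark that shared at least 1 base were joined into 1 region, and the region was labelled by the marks whose peaks it held. This gave 80812 regions from 146853 fetal peaks, out of 219055 peaks in the 8 fetal and adult lists. All 15 possible combinations of the 4 marks were found.

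Histone marks were measured by chromatin immunoprecipitation and sequencing (ChIP-seq) in B6129SF1 mice. Fetal cells came from the liver at embryonic day 14.5 and adult cells from the bone marrow of mice aged 6 to 8 weeks. At both stages the sorted cells lacked lineage markers and CD135 and carried Sca1 and cKit, and 50000 cells went into each ChIP. The series holds 20 samples in 10 groups of 2 replicates, for the 4 marks and an input at each stage, and 8 of them are ChIP samples of the fetal marks. This surface gate defines the population, and it can hold multipotent progenitors beside stem cells. No treatment or altered allele is named for either stage, and the identity of the cells was not checked against marker genes, because gene positions on the build of the files were not used here.

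Each list was taken as 1 peak call on both replicates pooled, since the deposited titles call the lists combined. No value below therefore has a replicate error, and no test between samples could be made. Shares are given with 95% exact (Clopper-Pearson) intervals, which cover counting error over regions only, and neighbouring regions are not independent of each other. The spread of a value over the 19 chromosomes is given beside the values that matter most. Read depth is not given in the sources used here, so a peak missing from a list may be a weak signal below the caller's limit.

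H3K4me3 marks active and poised promoters. H3K27ac marks active promoters and enhancers, and H3K4me1 marks enhancers and the flanks of promoters. H3K27me3 is set by Polycomb repressive complex 2 and marks silenced genes, and promoters that carry both H3K4me3 and H3K27me3 are called bivalent, a state known from stem cells in which silenced developmental genes keep a promoter mark.

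Most regions held a single mark, but most of the marked length lay in regions with several. Regions with 1 mark numbered 54898, or 67.9% (67.6 to 68.3%) of all regions, with a median width of 431 bp. They made up 32.1% of the 117.32 Mb covered. The 25914 regions with more than 1 mark had a median width of 2423 bp and held 67.9% of the covered length. Of them, 12717 held 2 marks, 12101 held 3 marks and 1096 held all 4. Every region with 1 mark was 1 peak, while the others join several peaks, so the joining itself adds to their width and length. Counted base by base, as given below, most of the marked length lay under 1 mark only.

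With all peaks of each list, H3K4me1 alone was the most frequent label. It was found for 43674 regions, 54.0% (53.7 to 54.4%) of the total, and its share ran from 50.6% on chromosome 7 to 59.5% on chromosome 16. These regions were narrow, with a median of 362 bp, and 93.1% were under 1 kb wide. They covered 20.6 Mb. The H3K4me1 list was by far the longest of the 4, with 92339 peaks against 14579 for H3K27me3, 16567 for H3K4me3 and 23368 for H3K27ac. With the 14579 best-scoring peaks taken from every list, H3K4me1 alone was the label of 5529 regions, or 15.4%. It then came after H3K27me3 alone, with 10914 regions, and H3K4me3 with H3K27ac, with 6518, so its first place held at the unequal list lengths only.

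The promoter-type combination of H3K4me3, H3K27ac and H3K4me1 followed, again with all peaks, with 9974 regions, or 12.3% (12.1 to 12.6%) of the total. Its share lay between 10.9% on chromosome 12 and 14.0% on chromosome 7. The median width was 2641 bp, with chromosome medians from 2549 to 2839 bp. With all peaks it covered more of the genome than any other combination, 30.6 Mb or 26.1% of the marked length. When each list was cut to its 14579 best-scoring peaks this share was 11.5%, and 2393 regions had the label, fewer than the 3168 with H3K27ac and H3K4me1 and than the 3 labels named above.

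The other frequent labels were H3K27me3 alone and the enhancer-type pair of H3K27ac and H3K4me1. H3K27me3 alone was the label of 9421 regions, 11.7% (11.4 to 11.9%), and of 15.1 Mb. Its share varied over the chromosomes, from 5.11% on chromosome 10 to 16.1% on chromosome 4, a wider range than for the other 3 frequent labels. H3K27ac with H3K4me1 was the label of 9402 regions, 11.6% (11.4 to 11.9%), and of 21.6 Mb. Its median width was 1975 bp, and its share ran from 9.89% on chromosome 8 to 14.1% on chromosome 10.

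Regions that combined H3K27me3 with H3K4me1 were the widest. The bivalent regions with H3K4me1, which held H3K4me3, H3K4me1 and H3K27me3 but no H3K27ac, numbered 1993 (2.47%) and had a median width of 4417 bp, and 41.2% of them were over 5 kb. Although few, they covered 11.6 Mb, or 9.92% of the marked length. H3K4me1 with H3K27me3 labelled 1205 regions with a median of 3692 bp, and 35.6% of those were over 5 kb. The 1096 regions with all 4 marks had a median of 3678.5 bp, and 30.02% were over 5 kb. On single chromosomes the median width of the bivalent regions with H3K4me1 lay between 3942 and 5078 bp, above the whole range of the promoter-type regions. The counts depended on the weaker peaks: 152 bivalent regions with H3K4me1 and 153 with all 4 marks were formed by the peaks at or above the median score of each list, when H3K4me1 with H3K27me3 labelled 2180 regions and so passed the bivalent label. The 14579 best-scoring peaks per list formed 513 and 230.

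The remaining labels were rarer. H3K27ac alone was found for 1107 regions (median 1036 bp), H3K4me3 with H3K4me1 for 915 (1189 bp), H3K4me3 with H3K27ac for 868 (1747.5 bp), H3K4me3 alone for 696 (838.5 bp) and H3K4me3 with H3K27me3 for 322 (2824.5 bp). The 3 rarest labels joined H3K27ac to H3K27me3 without a full set of marks. There were 68 regions with H3K27ac, H3K4me1 and H3K27me3, 66 with H3K4me3, H3K27ac and H3K27me3, and 5 with H3K27ac and H3K27me3 alone.

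**Figure D1:**
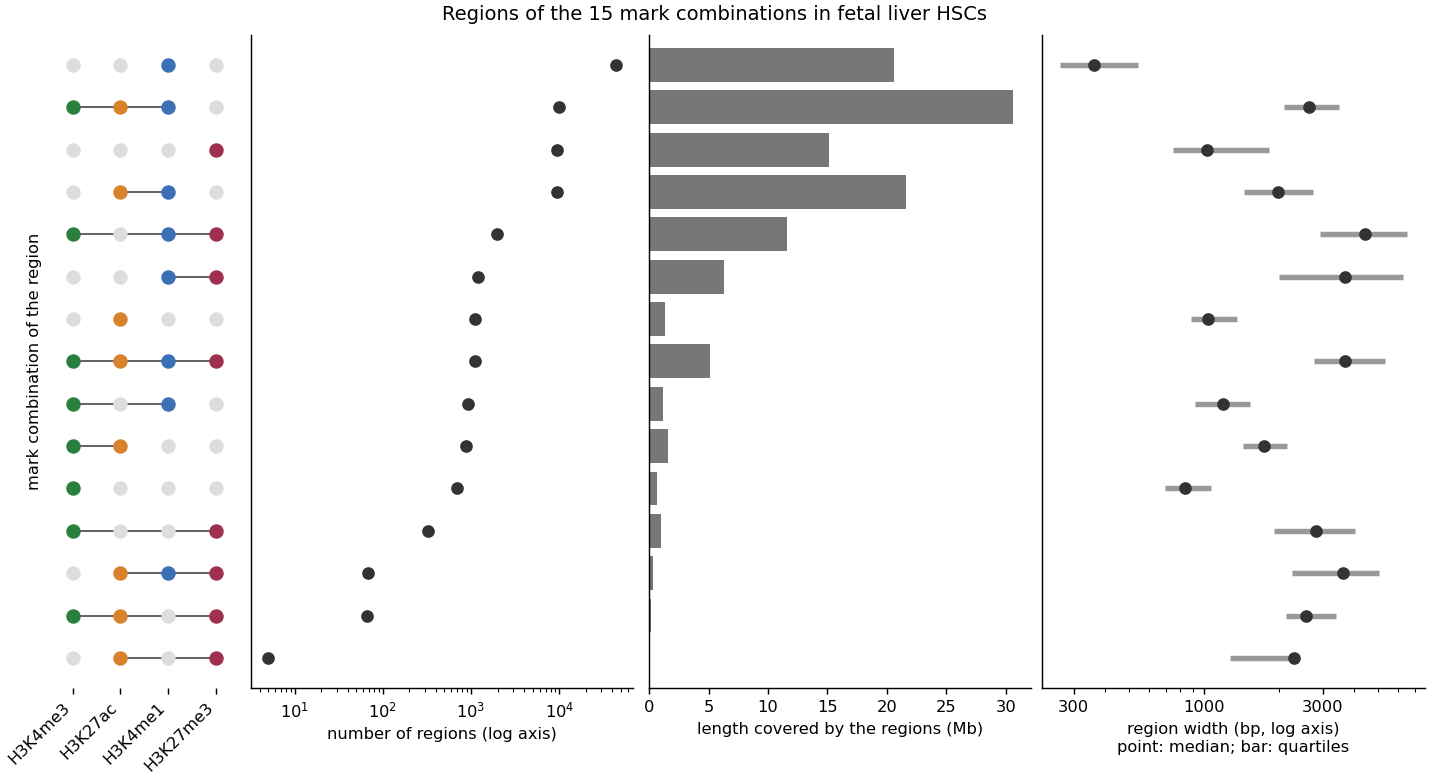
Number of regions (log axis), length covered in Mb and region width in bp (log axis, median with quartiles) for each of the 15 combinations. Filled circles at the left show which marks a combination holds. H3K4me1 alone is the most frequent and narrowest label, and the combination of H3K4me3, H3K27ac and H3K4me1 covers the most length, 30.6 Mb.

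A label speaks of a whole region, and its marks need not lie over the same bases. Counted base by base, all 4 marks overlapped on 562 kb, 0.48% of the marked length, whereas the regions labelled with all 4 covered 5.11 Mb. H3K4me3, H3K27ac and H3K4me1 overlapped on 6.92 Mb, against 30.6 Mb of regions with that label. H3K4me3 and H3K27ac without H3K4me1 covered 14.9 Mb by bases but only 1.62 Mb as a region label. H3K27me3 without any other mark was the largest class by bases, with 31.3 Mb or 26.7% of the marked length. H3K4me1 without any other mark held 22.3%, H3K27ac 7.90% and H3K4me3 2.30%, so most marked bases lay under a single mark.

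The joined peaks nearly always touched directly and were not linked only through a peak of another mark. In the promoter-type regions H3K4me3 and H3K27ac peaks overlapped each other in 99.9% of 9974 regions, and H3K27ac and H3K4me1 peaks in 96.7%. The weakest of the links among the 1096 regions with all 4 marks was that of H3K27ac and H3K27me3, which still overlapped each other in 93.3% (91.7 to 94.7%). Of 66041 peaks joined to an earlier peak, 931 (1.41%) were joined by 50 bases or fewer. Of 80793 neighbouring regions left apart, 5812 (7.19%) lay less than 50 bases from the next.

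The marks filled these regions differently. In the bivalent regions with H3K4me1, H3K27me3 covered 96.9% of the bases, H3K4me3 23.4% and H3K4me1 20.5%. In the promoter-type regions H3K27ac covered 83.6%, H3K4me3 72.5% and H3K4me1 47.9%. In the enhancer-type regions H3K27ac covered 87.95% and H3K4me1 73.5%. Where all 4 marks were present, H3K27me3 covered 74.0%, H3K4me3 47.8%, H3K27ac 40.7% and H3K4me1 37.4%.

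H3K27ac was rarer in H3K4me3 regions that also held H3K27me3. Regions with H3K4me3 numbered 15930, of which 75.4% held H3K27ac, 87.7% H3K4me1 and 21.8% (21.2 to 22.5%) H3K27me3. H3K27ac was present in 33.4% (31.9 to 35.0%) of the 3477 regions with H3K27me3 and in 87.1% (86.5 to 87.6%) of the 12453 without it. On the 19 chromosomes these shares ran from 25.6 to 38.7% and from 84.7 to 90.4%, so the ranges did not overlap. H3K4me1 was present in 88.8% (87.7 to 89.9%) with H3K27me3 and in 87.4% (86.8 to 88.0%) without.

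In percentage points, the gap in H3K27ac was wide in the weaker H3K4me3 regions and small in the strongest. The score in each list is a value the authors' peak caller gave every peak, and it is used here only to rank peaks within their own list, from 0 to 100 with 100 the best. The H3K4me3 regions were split by the rank of their best H3K4me3 peak into 4 classes, at percentiles 25, 50 and 75. In the lowest class 7.33% of regions with H3K27me3 held H3K27ac, against 54.3% of those without. The shares were 34.6% and 80.9% in the next class, 83.0% and 98.1% in the third, and 98.2% and 99.8% in the top class. Both shares in the top class were close to their upper limit, which leaves little room for a gap. Their intervals, 95.4 to 99.5% and 99.7 to 99.9%, still did not overlap. The top class held 218 regions with H3K27me3, against 1648 in the second. H3K4me1 was ordered the other way within these classes and was more frequent with H3K27me3 in each. Its shares with and without H3K27me3 were 82.0% and 74.2% in the lowest class, 92.1% and 81.1% in the next, 93.3% and 90.05% in the third, and 97.7% and 95.2% in the top class. Only in the lower 2 classes did the H3K4me1 intervals not overlap. Region width was not matched within these classes. Over all ranks, the labels with H3K4me3 and H3K27me3 had median widths from 2560.5 to 4417 bp. The labels with H3K4me3 and no H3K27me3 had medians from 838.5 to 2641 bp.

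The presence of H3K27me3 at H3K4me3 regions changed with the peaks kept. With only the peaks at or above the median score of each list, 4.77% of H3K4me3 regions held H3K27me3. With the 14579 best-scoring peaks of each list the share was 21.1%, and 18.95% of the H3K4me3 regions with H3K27me3 then held H3K27ac, against 79.5% of those without.

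Outside H3K4me3 regions, H3K27ac and H3K27me3 were almost never found together. Of 22586 regions with H3K27ac, 12004 held H3K4me3, and 9.68% (9.16 to 10.2%) of these held H3K27me3. Among the 10582 without H3K4me3, 73 regions or 0.690% (0.541 to 0.867%) held H3K27me3. Read from the other side, H3K27ac was present in 0.682% of the 10699 H3K27me3 regions without H3K4me3, and on no chromosome in more than 2.11%. H3K4me1 was present in 88.8% of H3K27me3 regions with H3K4me3 and in 11.9% of those without, with chromosome ranges of 83.7 to 93.2% and 9.34 to 18.3%.

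H3K27me3 mostly stood alone, and its stronger and wider regions were the ones that held other marks. Of 14176 regions with H3K27me3, 66.5% (65.7 to 67.2%) held no other mark. By the rank of the best H3K27me3 peak, the share with no other mark was 93.0%, 85.9%, 63.4% and 24.3% from the lowest to the highest class. The median region width in these classes was 693, 1078, 2275 and 5139 bp, so width and rank moved together, and their separate parts were not tested.

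H3K4me1 regions showed the same order for H3K27ac. Of 68327 regions with H3K4me1, 63.9% held no other mark and 30.1% held H3K27ac. By the rank of the best H3K4me1 peak, the share with H3K27ac was 6.79%, 15.1%, 32.6% and 61.5% from the lowest to the highest class, and the median region width was 248, 377, 678 and 2153.5 bp. In H3K4me3 regions the corresponding shares with H3K27ac were 38.2%, 61.8%, 96.3% and 99.7%.

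The marks differed in the combination where they ranked best. H3K4me3 ranked best in the promoter-type regions, where the median rank of the best H3K4me3 peak was 82.6. Of these regions 50.1% (49.1 to 51.1%) held an H3K4me3 peak with a score of 3100 or more. H3K4me3 peaks at exactly 3100 share 1 rank, 82.6, and scores in this list ran up to 3233.06, so higher ranks exist. H3K4me3 ranked at 53.1 with H3K27ac only, at 46.7 in regions with all 4 marks, at 25.7 in the bivalent regions with H3K4me1, at 17.4 with H3K27me3 only and at 13.3 where it stood alone. By chromosome the median lay between 62.0 and 82.6 in the promoter-type regions and between 20.1 and 31.9 in the bivalent regions with H3K4me1.

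H3K27me3 was ordered otherwise. Its best peak had a median rank of 85.3 in the bivalent regions with H3K4me1, 80.9 with H3K4me1 only, 70.9 with H3K4me3 only, 70.4 in regions with all 4 marks and 36.2 where H3K27me3 stood alone. The chromosome medians ran from 82.1 to 88.7 in the bivalent regions with H3K4me1 and from 30.1 to 39.8 for H3K27me3 alone. The regions with the best-ranked H3K27me3 thus held some of the lower-ranked H3K4me3 peaks.

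H3K4me1 ranked high at enhancer-type regions. The median rank of its best peak was 87.3 in the 68 regions with H3K27ac and H3K27me3, 85.6 with H3K27ac only, 78.3 with all 4 marks, 72.7 in the promoter-type regions and 37.8 where it stood alone. Many regions hold several H3K4me1 peaks, which favours a high best rank, but enhancer-type regions with a single H3K4me1 peak had a median of 86.3. H3K27ac ranked highest in the promoter-type regions at 73.3, and lower at 35.0 in enhancer-type regions and 14.1 where it stood alone. Each within its own list, enhancer-type regions thus combined high-ranked H3K4me1 with H3K27ac peaks below the middle. The H3K4me1 list held 92339 peaks and the H3K27ac list 23368, so a rank in one is not comparable with a rank in the other. The contrast between these marks therefore depends on list length, and it was not tested with ranks from lists of equal length.

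**Figure D2:**
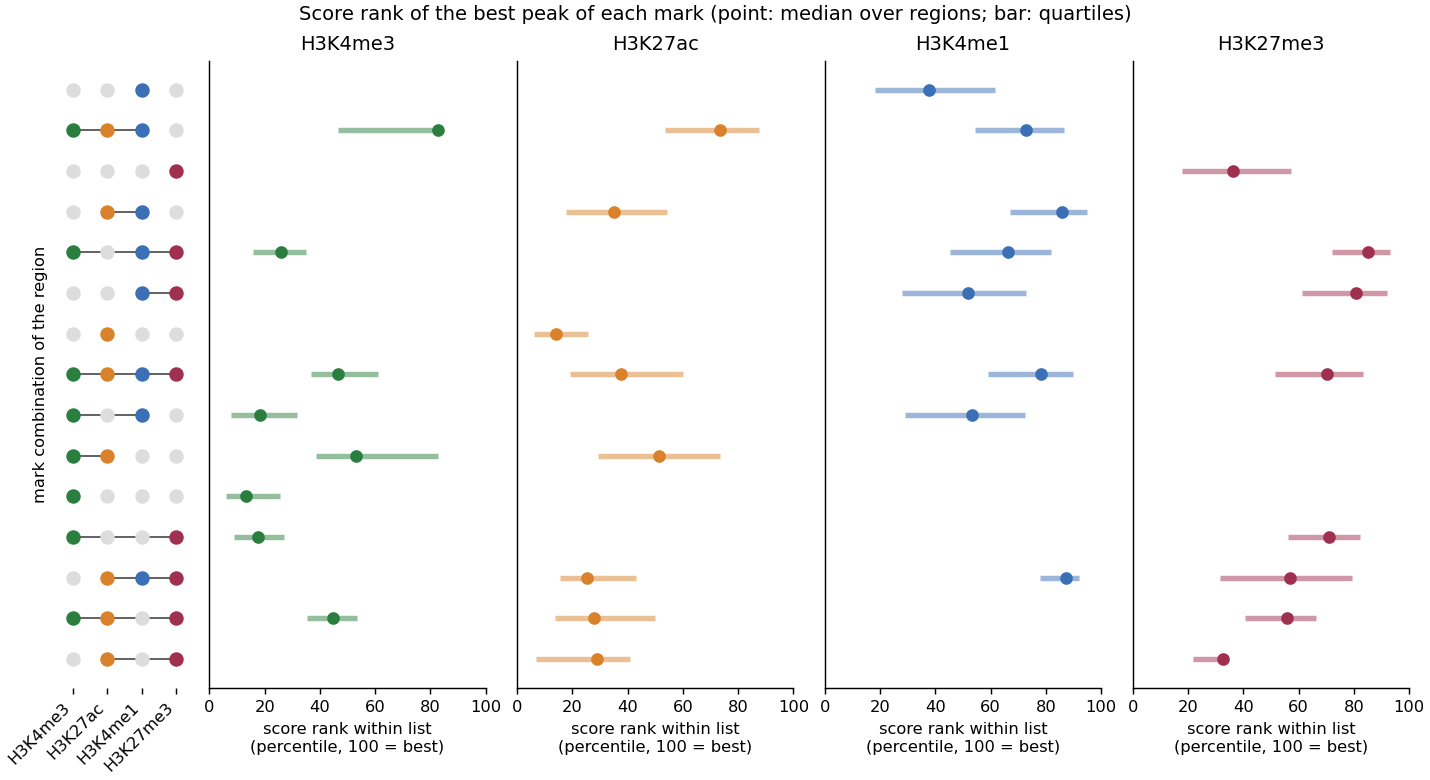
Rank of the best peak of each mark within its own list (percentile, 100 the best), as median and quartiles over regions, for each combination. H3K4me3 is highest with H3K27ac and H3K4me1 (82.6), H3K27me3 is highest with H3K4me3 and H3K4me1 (85.3), and every mark has a median of 37.8 or less where it stands alone.

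Around the H3K4me3 peaks, H3K4me1 was arranged differently in promoter-type and bivalent regions. In the promoter-type regions H3K4me1 covered 17.3% of the bases in the middle of the 10289 H3K4me3 peaks, the inner stretch that makes up 50% of each peak's width, and 56.9% of the outer part. In the bivalent regions with H3K4me1 it covered 50.8% of the middle and 54.8% of the outer part of 2161 peaks. Chromosome values for the middle ran from 13.6 to 20.04% and from 45.5 to 56.7%, with no overlap between both kinds. In regions with all 4 marks the middle was covered to 40.9% and the outer part to 60.2%.

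The averaged profiles showed the same contrast. At promoter-type H3K4me3 peaks, H3K4me1 coverage was 16.9% at the centre and reached 48.5% at 850 bp to the side. At bivalent peaks it was 49.1% at the centre and 54.7% at 250 to 350 bp. In regions with all 4 marks both H3K4me1 and H3K27me3 had a dip at the centre: H3K27me3 covered 56.7% there and 65.5% at 650 bp, and H3K4me1 covered 39.0% and 55.7% at 550 bp. H3K27me3 around bivalent peaks showed no dip, with 90.8% at the centre and 57.9% at 2 kb. At the 9662 H3K27ac peaks of enhancer-type regions H3K4me1 coverage was highest at the centre, 78.5%.

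The contrast in the middle of the H3K4me3 peaks depended on their width and rank. Promoter-type peaks were wider, with a median of 2056 bp against 1191 bp. Among peaks of 2 to 3 kb H3K4me1 covered 9.81% of the middle in promoter-type and 47.2% in bivalent regions, and among peaks of 1.5 to 2 kb 19.6% and 44.9%. Among peaks of 1 to 1.5 kb the values were 44.1% and 50.4%. Under 1 kb the order was opposite, with 68.3% in promoter-type and 61.4% in bivalent regions. At like rank of the H3K4me3 peak the gap was smaller than over all peaks. In the lowest rank class the order was opposite too, with 68.9% and 61.1%. The values were 39.4% and 45.7% from percentile 25 to 50. From 50 to 75 they were 17.5% and 29.4%, with only 55 bivalent peaks. The top rank class held 5005 of the promoter-type peaks, with 8.05% of the middle covered, and no bivalent value is given there. With only the better-scoring peaks the difference over all peaks was 18.7 percentage points, against 33.5 with all peaks.

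H3K4me1 flanked both sides of a promoter-type peak more often. Within 500 bp of both edges it was present at 43.0% (42.0 to 43.9%) of promoter-type peaks, 36.1% (33.4 to 38.8%) of peaks in regions with all 4 marks and 25.1% (23.3 to 26.96%) of bivalent peaks. It was on 1 side only at 42.7%, 41.9% and 46.0% of them.

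**Figure D3:**
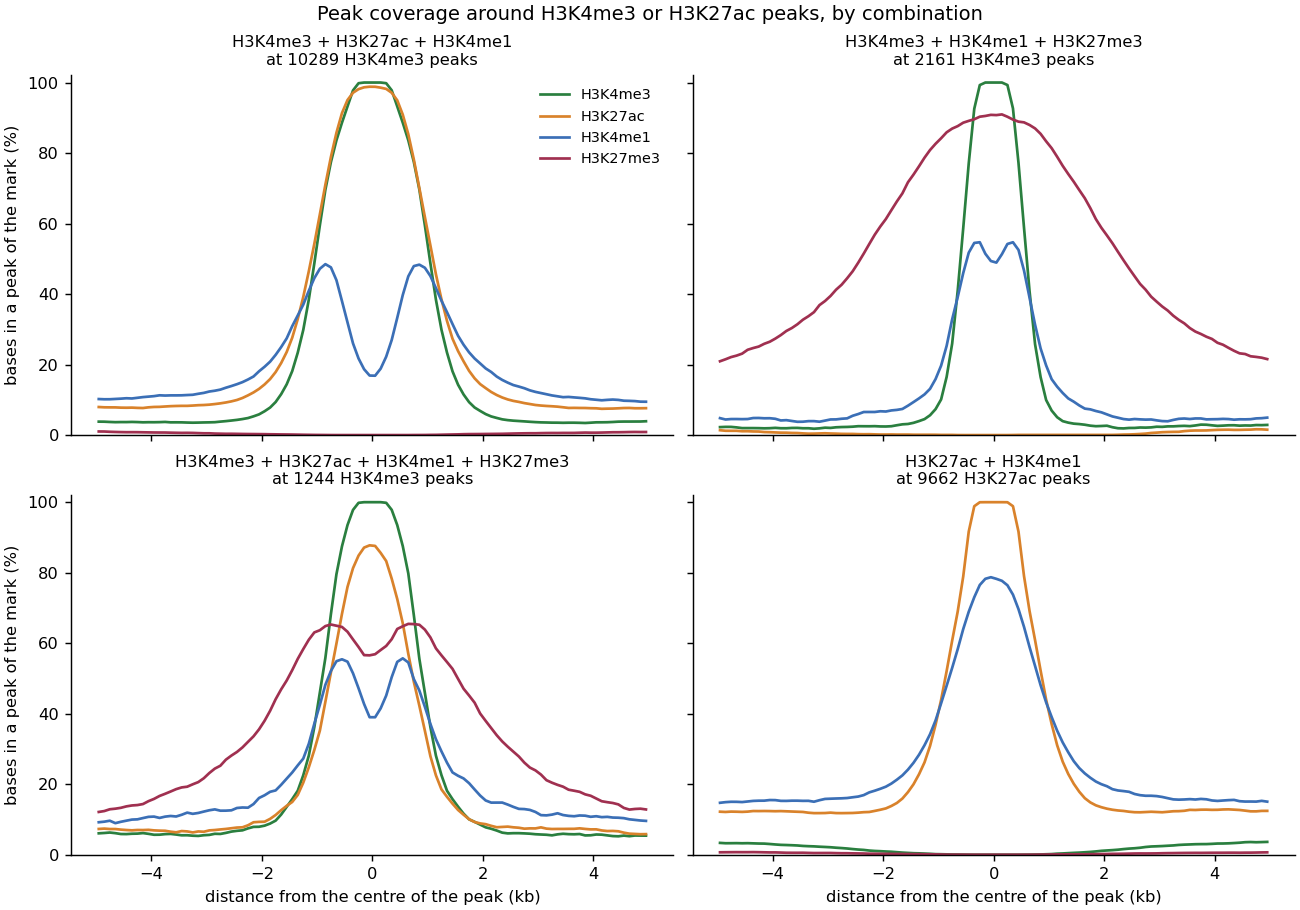
Share of bases covered by peaks of each mark, in bins of 100 bp within 5 kb of the centre of H3K4me3 peaks in 3 combinations and of H3K27ac peaks in enhancer-type regions. H3K4me1 drops to 16.9% at the centre of promoter-type H3K4me3 peaks, and stays at 49.1% at the centre of bivalent ones, which lie inside a broad H3K27me3 stretch.

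The combinations were spaced differently along the chromosomes. The median gap from a region to the nearest other region was 0.55 kb. It was 0.30 kb for H3K4me1 alone, 0.59 kb for H3K27me3 alone, 0.98 kb for enhancer-type regions and 2.59 kb for promoter-type regions. Most regions with H3K4me3 and no H3K4me1 stood more apart, at 10.9 kb with H3K27ac only, 11.9 kb with H3K27me3 only and 14.6 kb for H3K4me3 alone. With both H3K27ac and H3K27me3 the gap was 4.28 kb, over 66 regions. Enhancer-type regions lay at a median of 21.6 kb from the nearest region with H3K4me3, H3K4me1 alone at 18.1 kb and H3K27me3 alone at 35.0 kb. With only the better-scoring peaks the distance of enhancer-type regions to H3K4me3 was 35.8 kb.

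H3K27me3-only regions came in series. The next region along the chromosome was again H3K27me3 alone for 59.9% (58.9 to 60.9%) of them, while 11.7% of all regions have that label. The share ran from 36.9% on chromosome 10 to 67.3% on chromosome 8. Many of these regions lay close together, with 45.7% of them within 1 kb of another. With peaks joined within 1 kb the label fell from 9421 to 5154 regions, and 45.7% were followed by their like. Whether such neighbours are pieces of 1 longer stretch was not tested. H3K4me1-only regions were followed by another in 64.7% of cases, against 54.1% of all next regions. Promoter-type regions were followed by their like in 20.01% against 12.3%, and enhancer-type regions in 19.3% against 11.6%. An enhancer-type region was followed by H3K27me3 alone in 2.61% of 9400 cases.

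Bivalent regions with H3K4me1 often had H3K27me3 as their neighbour, since H3K27me3 alone was next in 31.9% (29.9 to 34.0%) of 1992 cases. H3K4me1 alone was next in 33.6% of them, below its 54.1% of all next regions. The median gap from a region of this bivalent kind to the nearest of the same kind was 249 kb. It was 390 kb for the 1096 regions with all 4 marks, and such a gap also depends on how frequent a label is. The bivalent label was followed by itself in 4.07% (3.24 to 5.03%) of cases, against 2.46% of all next regions.

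The longest unbroken run of 1 label held 46 regions of H3K27me3 alone, on chr7:77520237-78386835, spanning 866.6 kb. The longest run of H3K4me1 alone held 37 regions in 51.89 kb, chr11:23985659-24037549. H3K4me3 alone, a rare label, was next to itself in 8.09% of cases against 0.86% of all next regions, and 9 such regions followed each other on chr2:174966942-177692144. Of the H3K27me3-only regions 78.5% were in a run of 2 or more, and 43.4% in a run of 5 or more.

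**Figure D4:**
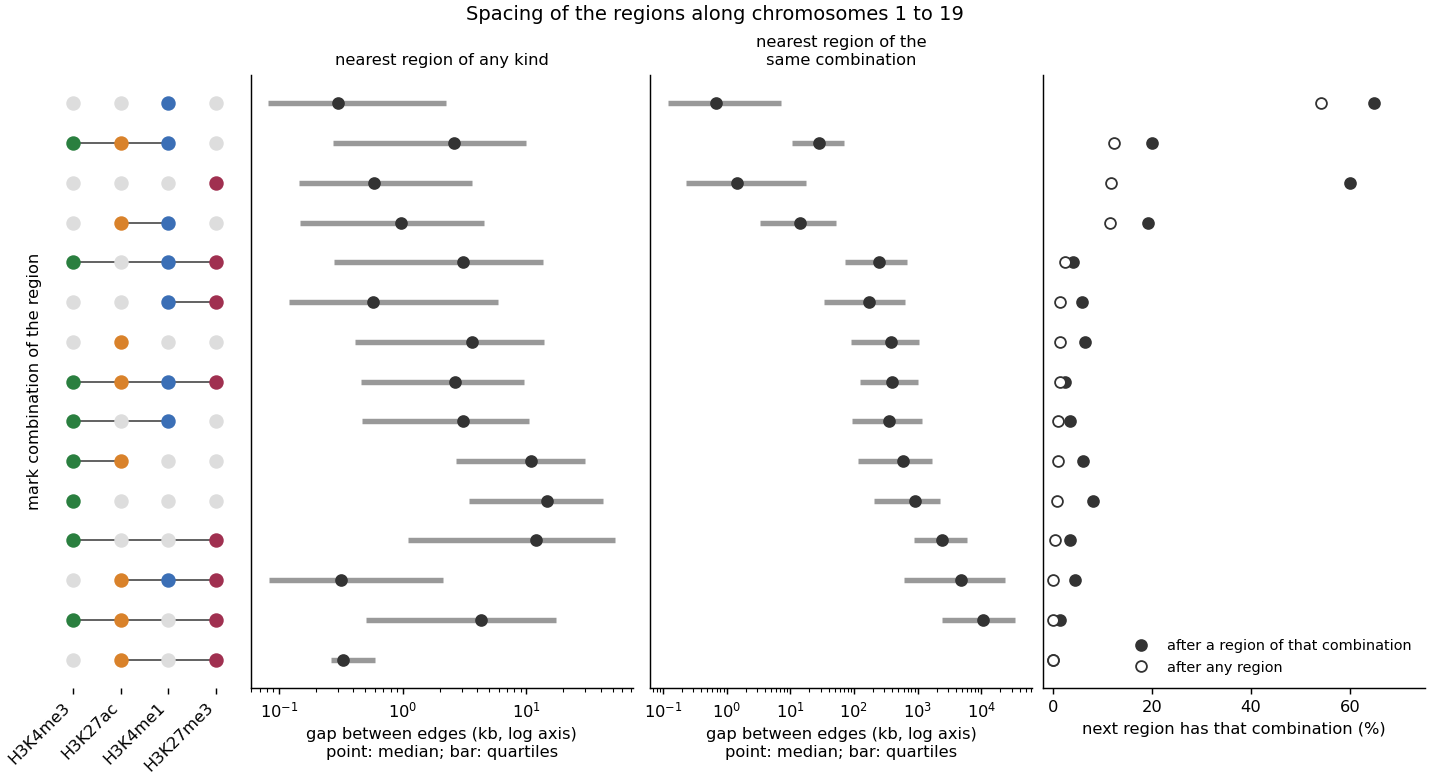
Gap in kb (log axes) to the nearest region of any kind and of the same combination, as median and quartiles, and the percent of regions whose next region has the combination, after a region of that combination (filled) or after any region (open). H3K27me3 alone follows itself in 59.9% of cases against 11.7% after any region.

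Some regions stood out by width or by their number of peaks, and they are given by position on mm9, since gene names were not assigned on this build. The widest bivalent region with H3K4me1 was chr2:74484186-74554065. It was 69880 bp wide and held 18 peaks: a single H3K27me3 peak over its whole length, 3 H3K4me3 peaks over 3.53% and 14 H3K4me1 peaks over 11.2% of its bases. Its H3K27me3 peak ranked at 63.2, below the median of 85.3 for such regions. Adult H3K27me3 peaks covered 78.2% of it.

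The widest region with all 4 marks, chr6:52165219-52210395, was 45177 bp wide. H3K27me3 covered 61.8% of it, H3K4me3 43.7% and H3K27ac 43.1%, and its best H3K4me3 peak scored 3100. In the adult lists the same stretch was covered to 45.9% by H3K4me3, 40.7% by H3K27ac and 42.1% by H3K27me3. The region with the most peaks, 26, was chr11:96127091-96166746, also with all 4 marks. H3K27me3 lay over 99.9% of its 39656 bp, and H3K27ac over 2.80%. On the same chromosome, chr11:118900281-118925395 held 21 peaks of the 4 marks, with H3K27me3 over 91.0% of 25115 bp.

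Active-type regions were also broad in places. The widest with H3K4me3, H3K27ac and H3K4me1 was chr15:101071122-101098900, 27779 bp with 21 peaks, in which 1 H3K27ac peak spanned the whole region, 17 H3K4me1 peaks covered 63.4% and H3K4me3 covered 16.4%. Adult H3K27ac peaks covered 50.7% of it. The widest enhancer-type region, chr4:134622326-134642938, was 20613 bp wide and held 12 H3K4me1 and 2 H3K27ac peaks, with the H3K27ac peaks over 97.0% of its bases. Adult H3K27ac covered 39.2% of it and adult H3K4me1 15.5%. In the widest H3K4me1-only region, chr2:26341461-26347146 with 5686 bp, no adult peak of the 4 marks was listed, although its H3K4me1 peak ranked at 99.8.

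The adult lists, which took no part in forming the regions, were then laid over them. An adult peak counted where it shared at least 1 base with the region. Of all 80812 fetal regions, 19.6% held an adult H3K4me3 peak, 21.1% an adult H3K27ac peak, 9.6% an adult H3K4me1 peak and 6.45% an adult H3K27me3 peak, and 66.7% held none. The adult H3K4me1 list covered 2.81 Mb and the adult H3K27me3 list 9.31 Mb, against 57.2 and 37.8 Mb in the fetal lists. Their median peak widths were 193 and 280 bp, against 430 and 1408 bp. A fetal mark with no adult peak of the same mark therefore cannot be told apart from a difference between the lists in depth or calling, most of all for these 2 marks.

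Promoter-type regions nearly all held adult peaks. Adult H3K4me3 was found in 96.0% (95.6 to 96.4%) and adult H3K27ac in 94.5% (94.0 to 94.9%) of the 9974 regions, adult H3K4me1 in 18.5% and adult H3K27me3 in 0.371%. The chromosome values for adult H3K27ac ran from 90.1 to 96.8%. By all 4 adult lists together, 75.4% of these regions held H3K4me3 with H3K27ac only, and 16.4% held the same 3 marks as in the fetal lists.

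Enhancer-type regions held adult peaks far less often. Adult H3K27ac was found in 37.3% (36.4 to 38.3%) of the 9402 regions, with 30.8 to 44.7% by chromosome, below the whole range of the promoter-type regions. Adult H3K4me1 was found in 31.0% (30.05 to 31.9%), against 9.6% of all fetal regions, and from 1 to 5 kb in 30.5% against 16.3%. Adult H3K4me3 was found in 3.63% and adult H3K27me3 in 3 regions, 0.0319%. No adult peak was found in 50.1% (49.0 to 51.1%), H3K27ac with H3K4me1 in 18.3%, H3K27ac alone in 16.5% and H3K4me1 alone in 11.4%.

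The adult share of enhancer-type regions went with their width and score. Adult H3K27ac was found in 10.7% of the 638 regions under 1 kb, 37.0% of the 8370 regions of 1 to 5 kb and 88.1% of the 394 regions over 5 kb. Over all fetal regions of the same widths the shares were 2.68%, 46.7% and 50.9%, so the enhancer-type share was below that of all regions from 1 to 5 kb and above it in the other classes. With only the better-scoring fetal peaks 78.1% of them held adult H3K27ac, and with the 14579 best-scoring peaks of each fetal list 67.4% did. In promoter-type regions of 1 to 5 kb the share was 94.2%, so the difference between both kinds was also seen within this width class. The median fetal H3K27ac rank was 73.3 in promoter-type and 35.0 in enhancer-type regions, and the kinds were not compared at like rank.

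Bivalent regions with H3K4me1 mostly held both of their defining marks in the adult lists. Adult H3K4me3 was found in 84.1% (82.5 to 85.7%) of 1993 and adult H3K27me3 in 78.7% (76.9 to 80.5%), where 6.45% of all fetal regions held adult H3K27me3. Over 5 kb, adult H3K27me3 was found in 97.9% of these bivalent regions and in 57.0% of all regions. Adult H3K27ac was found in 23.2% (21.4 to 25.1%). At like width this was below the share of all fetal regions, with 26.7% against 46.7% from 1 to 5 kb and 18.5% against 50.9% over 5 kb. H3K4me3 with H3K27me3 was the adult label of 43.0%, H3K4me3, H3K27ac and H3K27me3 of 12.1%, and H3K27me3 alone of 11.4%. When 500 adult bases were required, 66.0% still held adult H3K27me3.

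In regions with all 4 fetal marks, adult H3K4me3 was found in 98.1% (97.1 to 98.8%), adult H3K27ac in 84.6% (82.3 to 86.7%) and adult H3K27me3 in 548 of the 1096 regions (interval 47.0 to 53.0%). Their adult label was H3K4me3 with H3K27ac in 38.5% and H3K4me3, H3K27ac and H3K27me3 in 27.5%. By chromosome, adult H3K27me3 lay between 36.2 and 57.9% here and between 70.7 and 87.7% in the bivalent regions with H3K4me1.

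H3K27me3 was found again in the adult list where the fetal region was wide or carried other marks. Adult H3K27me3 was present in 20.6% (19.8 to 21.5%) of the 9421 regions with H3K27me3 alone, in 65.6% (62.9 to 68.3%) of the 1205 with H3K4me1 and in 60.6% (54.99 to 65.9%) of the 322 with H3K4me3. For H3K27me3 alone the share was 5.35% under 1 kb, 30.6% from 1 to 5 kb and 90.2% over 5 kb. With H3K4me1 it was 9.09%, 54.1% and 97.0% in the same classes. In regions of 1 to 5 kb it was 65.4% for the bivalent regions with H3K4me1. Among all fetal regions the share with adult H3K27me3 was 0.649% under 1 kb, 10.04% from 1 to 5 kb and 57.0% over 5 kb. These shares were lower than those of H3K27me3 alone in each class, but they also rose with width.

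H3K4me1-only regions were rarely matched. Adult H3K4me1 was found in 5.11% (4.91 to 5.32%) of 43674, and 91.2% held no adult peak of any mark. From 1 to 5 kb the share was 23.9%, above the 16.3% of all fetal regions. Under 1 kb it was 3.71% against 3.35%, but 40647 of the 47289 regions of that width were H3K4me1-only themselves. H3K4me3 alone differed from the other single marks, since 70.0% (66.4 to 73.4%) of its 696 regions held adult H3K4me3 despite low fetal ranks, and 13.6% held adult H3K27ac. Of the 915 regions with H3K4me3 and H3K4me1, 72.9% held adult H3K4me3 and 26.3% adult H3K27ac. Over all fetal regions the shares were 19.6% for adult H3K4me3 and 21.1% for adult H3K27ac. Under 1 kb, adult H3K27ac was in 5.11% of H3K4me3 alone and 4.86% of H3K4me3 with H3K4me1, against 2.68% of all regions. From 1 to 5 kb it was in 33.8% and 36.1%, below the 46.7% of all regions.

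**Figure D5:**
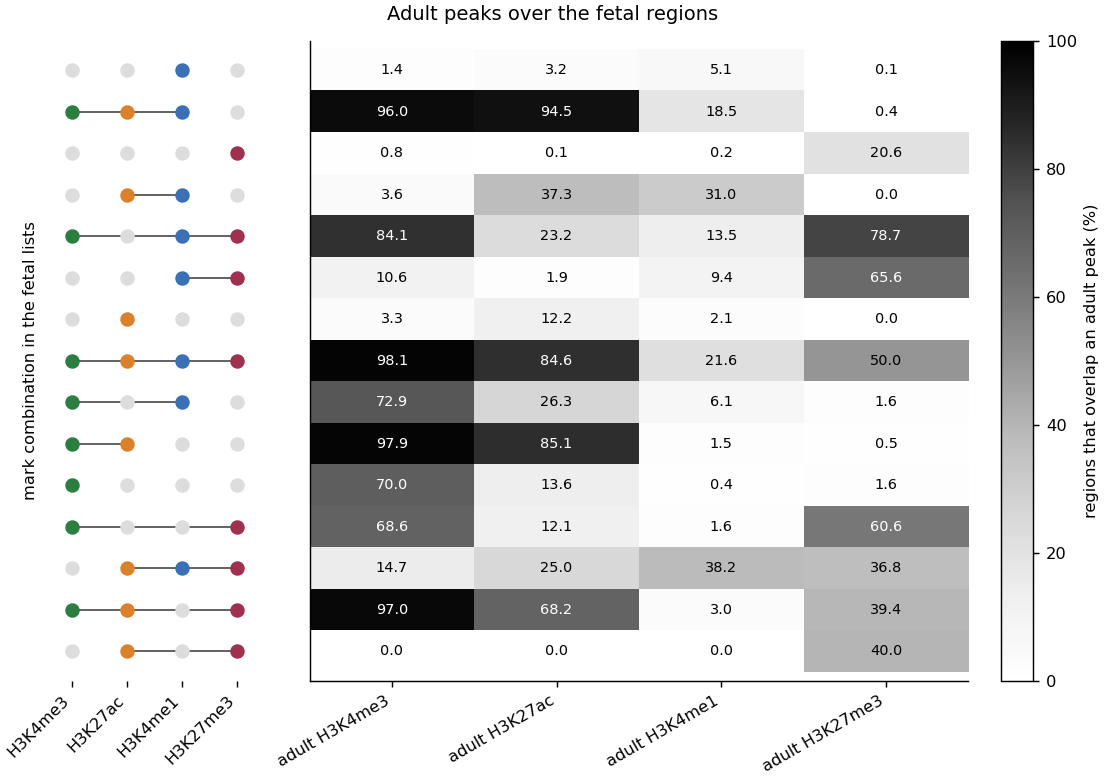
Percent of the regions of each fetal combination that share at least 1 base with an adult peak of each mark, with the value written in each cell. Adult H3K4me3 and H3K27ac cover most promoter-type regions (96.0 and 94.5%), and adult H3K27me3 is frequent where fetal H3K27me3 was joined by H3K4me3 or H3K4me1.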

How the data were processed

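The 8 deposited lists hold ChIP-seq peaks with a position and a score, and MACS stands at the start of each peak name. The score is the authors' peak caller value and has no stated unit. Build mm9 and Bowtie2 2.2.2 are named in the submitters' processing notes. The caller's version, control, settings and read depth are not given in the sources used here.

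Positions were turned from BED to 1-based. Peaks of the 4 fetal lists on 19 chromosomes were joined at 1 shared base with numpy 2.4.6 and pandas 2.3.3 in Python 3.11.15, and scipy 1.17.1 gave exact intervals. Scores were ranked within each list, with tied scores, such as those at 3100, sharing a rank. Gaps were measured from edge to edge. Named regions were the widest of each combination and the 3 with most peaks, with none from 1 chromosome named, and of them those the text needed are given. The joining was tested on simulated data, where 3000 of 3000 planted regions were recovered. Groups followed the sample titles. No p-value was computed. Peaks on X, Y and contigs were left out of the report. The regions, labels and comparisons were chosen with earlier results of these data known.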

Additional observations from a re-analysis of the deposited data

Results flagged for a closer look

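Chromosome X was outside the regions of the report, and its marks combined differently. On X the same joining gave 1031 regions. H3K4me3 with H3K27ac but no H3K4me1 was the label of 26.1% (23.4 to 28.9%) of them, against 0.558 to 1.51% on chromosomes 1 to 19. H3K4me3 alone was the label of 11.7%, against 0.555 to 1.39%, and H3K4me1 alone of 25.4%, against 50.6 to 59.5%. H3K4me1 was present in 14.4% (11.5 to 17.7%) of the 527 X regions with H3K4me3, and in 82.3 to 92.6% on chromosomes 1 to 19. It was present in 25.3% of 415 X regions with H3K27ac, against 90.9% elsewhere. The H3K4me1 list held 445 peaks on X, while chromosome 18, the autosome with fewest, had 2668. Those X peaks had a median width of 273 bp against 430 bp, and a median rank of 22.5 against 50.2. H3K4me3 had 534 peaks on X, against 470 on the autosome with fewest. The cause was not tested.

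The 4 fetal lists also held 101 peaks on contigs without a chromosome position, which took no part in any value.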

How the results depend on the processing

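The difference in H3K4me1 over the middle of H3K4me3 peaks, bivalent minus promoter-type, stayed positive in every setting that recomputed it. The other recomputed values cannot be negative, so their sign says nothing. The order of the combinations by count did change. With equal numbers of top-ranked peaks, H3K27me3 alone (10914) and H3K4me3 with H3K27ac (6518) passed H3K4me1 alone (5529) and the promoter-type label (2393). With better-scoring peaks, H3K4me1 with H3K27me3 (2180) passed the bivalent label (152). Values that changed by more than their interval, or by over 1.5 times for counts and shares of bases, are given by setting, and the cause was not tested beyond what each setting removes or joins. The other shares, medians and ratios the settings recomputed stayed within these limits. Of the 15 counts of single combinations, 12 changed by over 1.5 times with the better-scoring peaks, 14 with equal numbers and 2 with joining within 1 kb. Without the H3K4me1 list, 6 of 7 did, since its regions join other labels or drop out.

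With only peaks at or above the median score of each list there were 44794 regions, 56.4% with H3K4me1 alone and 31.5% with more than 1 mark. Promoter-type width was 3039 bp, and 4.77% of H3K4me3 regions held H3K27me3. H3K27ac was in 48.3% of H3K4me3 regions with H3K27me3 and 86.2% of those without. H3K27me3 stood alone in 62.9% and was followed by its like in 46.7%. The bivalent H3K4me3 rank was 57.0 and the difference over the middle 18.7 points. For enhancer-type regions the H3K4me1 rank was 92.8, the distance to H3K4me3 35.8 kb and the adult H3K27ac share 78.1%. The ranks in this setting still refer to the full lists, so dropping the lower-scoring peaks puts a floor under them. Adult H3K27me3 was in 69.1% of bivalent regions.

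With equal numbers of top-ranked peaks there were 35798 regions, 15.4% with H3K4me1 alone and 43.7% with more than 1 mark. Promoter-type regions had 11.5% of the length and a width of 3861 bp. H3K27me3 was in 21.1% of H3K4me3 regions, and H3K27ac in 18.95% with and 79.5% without it. H3K27me3 stood alone in 76.8% and followed itself in 69.5%. Ranks, again from the full lists with a floor set by the dropped peaks, were 31.7 for bivalent H3K4me3 and 95.5 for enhancer-type H3K4me1. The distance was 20.6 kb, and the adult shares were 67.4% and 83.2%.

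With peaks joined within 1 kb there were 52008 regions, 40.9% with H3K4me1 alone and 46.6% with more than 1 mark. The width was 2924.5 bp, the distance 23.8 kb and H3K27me3 at H3K4me3 22.6%. H3K27ac was in 35.3% with and 87.9% without H3K27me3, which stood alone in 52.1% and followed itself in 45.7%.

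Requiring 200 bases of a mark gave 53.3% for H3K4me1 alone and 32.5% with more than 1 mark, and adding X and Y gave 53.7% for H3K4me1 alone. Requiring 500 adult bases gave 66.0% for bivalent adult H3K27me3, and centre-to-centre distance gave 24.5 kb. Leaving the H3K4me1 list out, chosen after seeing the data, gave 37748 regions, 38.3% with more than 1 mark, and H3K27me3 alone in 75.1% and followed by its like in 68.4%. No paired analysis was possible because the 2 replicates of a mark share 1 list, which also left no replicate to leave out in turn.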
